A study of Mus musculus with 40 samples.

Results

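The genes described here are heme oxygenase 1 and 8 redox genes that are either targets of the transcription factor NRF2, NRF2 itself or the superoxide- and peroxide-producing oxidase Nox4. They were taken by symbol: Hmox1, Txnrd1, Srxn1, Gclm, Gclc, Nqo1, Slc7a11, Nfe2l2 and Nox4. All 9 were among the 17402 genes of one expression table and the 15399 genes of a second, and all 9 passed the filter on low values in both. RNA-seq was run on mouse aorta to ask which effects of angiotensin II (Ang-II), a pressor peptide that remodels the vessel wall, require the phosphatase calcineurin. Each of 40 libraries pooled 3 aortas of male mice, 10 to 12 weeks old when treatment began. By the protocol the adventitia was removed with forceps. The first table (22 libraries) compared control mice (Cn-Ctl) with mice lacking calcineurin in smooth muscle (SM-Cn-/-), without Ang-II or sampled 2, 6 or 24 h into an infusion of it (1 µg/kg/min by minipump). By the labels of these libraries both carried floxed CnB1 (Ppp3r1) and differed in Myh11-CreERT2, which was absent from Cn-Ctl. The study's methods also count mice with Myh11-CreERT2 and unfloxed CnB1 as Cn-Ctl, a kind that no label here names. Both arms received tamoxifen at 1 mg a day for 5 days and then waited 6 weeks. The Myh11 promoter drives Cre in smooth muscle, so the other cells of the wall kept the gene. There were 3 libraries a group except untreated and 24 h Cn-Ctl, with 2 each. The second table (18 libraries, 3 a group) compared C57BL/6J mice (WT) with mice given the calcineurin inhibitor cyclosporin A by minipump for 5 days (CsA), again without Ang-II or at 2 and 24 h of infusion. WT mice carried no CsA pump. Treated mice entered the Cn-Ctl, WT and CsA groups only with a systolic pressure above 130 mmHg, a limit not set for SM-Cn-/- mice. The study's methods also removed SM-Cn-/- mice in which the CnB1 deletion was not seen. CsA mice were removed where inhibited dephosphorylation of NFAT, a calcineurin substrate, was not seen in the thymus.

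NRF2, the product of Nfe2l2, is held at a low level by KEAP1, which delivers it for degradation. Oxidants and electrophiles block KEAP1, and NRF2 then pairs with a small MAF protein on antioxidant response elements, from which BACH1 is displaced. Hmox1 encodes the inducible enzyme that opens heme into biliverdin, carbon monoxide and iron, and in the vessel wall it is known as a stress-induced protective enzyme. Txnrd1 encodes cytosolic thioredoxin reductase, Srxn1 the sulfiredoxin that repairs overoxidized peroxiredoxins, Gclc and Gclm the catalytic and modifier subunits of the ligase that starts glutathione synthesis, Nqo1 a quinone reductase and Slc7a11 the cystine transporter that feeds glutathione synthesis. Nox4 is an NADPH oxidase abundant in vascular smooth muscle.

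The promoters of these genes were read first for the antioxidant response element, the sequence that NRF2 binds with its MAF partner. RefSeq (GRCm38.p6) gave 9 promoter windows of 300 bases, from 250 before to 50 after a start, for 7 of the genes. No window was at hand for Hmox1 and Gclc. Elements outside these windows, farther from a start, were not searched. The core TGACNNNGC was searched on both strands and was found in 4 of the 9 windows (44.4%), against 12.4% of 32851 windows of all genes. The AP-1 motif TGACTCA was found in 1 of the 9 (11.1%), against 5.20% of all windows, and did not overlap a core. The genes were picked as known targets, so these shares describe the choice. The 4 stretches around the cores and the 2 around the AP-1 motifs are printed on the gene's own strand, with cores and AP-1 motifs in capitals. The Txnrd1 core lay 88 bases before one of that gene's 3 starts (chr10:82859088-82859148), the Gclm core 130 bases before the start (chr3:122245397-122245457), the Srxn1 core 33 bases after it (chr2:152105526-152105573) and the Nfe2l2 core 236 bases before it (chr2:75704869-75704913, minus strand). The AP-1 motifs of Srxn1 lay 99 and 42 bases before its start (chr2:152105395-152105455 and chr2:152105452-152105512).
Txnrd1 core: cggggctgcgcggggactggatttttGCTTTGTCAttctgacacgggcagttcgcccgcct
Gclm core: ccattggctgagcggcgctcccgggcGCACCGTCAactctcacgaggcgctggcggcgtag
Srxn1 core: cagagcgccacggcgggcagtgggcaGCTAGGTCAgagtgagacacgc
Nfe2l2 core: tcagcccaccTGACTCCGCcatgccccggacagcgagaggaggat
Srxn1 first AP-1 motif: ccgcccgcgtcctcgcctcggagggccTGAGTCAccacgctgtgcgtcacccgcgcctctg
Srxn1 second AP-1 motif: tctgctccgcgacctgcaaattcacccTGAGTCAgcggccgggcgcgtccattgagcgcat

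Levels are given as the deposited signal, a gene's reads plus 0.5 divided by the scaled library size, and fold changes on the scale log2(signal + 0.5), with the standard error of the fit. A gene passed the test at an adjusted p under 0.05 (limma, over all protein-coding genes of a table). The libraries held 2728007 to 10250178 reads in the first table and 18976266 to 38900009 reads in the second. The scale was set within each table, and levels are not compared between the tables. Ppp3r1, the deleted gene, ranged from 45.7 to 134 in the 10 Cn-Ctl libraries and from 41.8 to 118 in the 12 SM-Cn-/- libraries, so its total did not separate the genotypes, and these values give no check of the labels. The study's methods describe a PCR for recombined CnB1 on aortic tissue and the removal of SM-Cn-/- mice in which the deletion was not seen. From SM-Cn-/- aortas the study also reports less protein of both calcineurin subunits by immunoblot, and a blunted rise of an NFAT target RNA under Ang-II. None of these results was analysed here. The 7 smooth muscle markers, Myh11 and Acta2 among them, summed to 16292 or more in every library. The 6 adventitial fibroblast markers summed to 1243 or more. At 2 h of Ang-II they summed to 2445 to 4167 in Cn-Ctl (untreated 1243 to 2118) and 2677 to 2831 in SM-Cn-/- (1772 to 2122). In WT and CsA the 2 h sums overlapped the untreated ones. At 24 h they were 3322 to 3790 in WT (2120 to 3039), 2357 to 2761 in CsA (2042 to 2237) and 2304 to 2714 in Cn-Ctl, and overlapped in SM-Cn-/-. Their part was not tested. In whole tissue, fewer cells of a type and less RNA per cell cannot be told apart.

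Hmox1 was among the least abundant of these transcripts in the untreated aorta and Nox4 the most abundant. Compared per kb of annotated exon in untreated WT mice, signal was 48.4 ± 4.37 for Nox4, 21.9 ± 0.443 for Nfe2l2, 11.4 ± 0.645 for Srxn1, 11.01 ± 0.806 for Nqo1, 10.2 ± 0.876 for Gclm, 9.77 ± 0.274 for Gclc, 8.13 ± 0.235 for Txnrd1, 3.71 ± 0.261 for Hmox1 and 0.144 ± 0.0469 for Slc7a11 (SD, n = 3). Srxn1 overlapped Nqo1, Nqo1 overlapped Gclm and Gclm overlapped Gclc, and no other neighbours in this order overlapped. Untreated Cn-Ctl mice gave 58.0 for Nox4, 3.33 for Hmox1 and 0.205 for Slc7a11 as the mean of 2 libraries. Slc7a11 rested on 2 to 73 reads a library in the first table and 21 to 101 in the second.

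In Cn-Ctl and WT aortas Hmox1 was higher at each hour of Ang-II measured, and Txnrd1 and Gclc were higher at 2 h. In WT Nfe2l2 was higher at 2 h, and Nox4 and Nqo1 were lower at 24 h. In Cn-Ctl mice at 2 h, Hmox1, Txnrd1 and Gclc rose, 3 of the 9, beside 4.72% of 14424 genes that were higher and 1.51% that were lower. At 6 h Hmox1 alone of the 9 rose (2.72% of all genes higher, 1.25% lower), and at 24 h Hmox1 and Gclm did (3.22% higher, 2.39% lower). Between 2 and 24 h, Gclc and Nfe2l2 fell, 2 of the 9 beside 7.37% of all genes called. In WT mice at 2 h, 5 of the 9 rose (Hmox1, Txnrd1, Srxn1, Gclc and Nfe2l2), beside 11.4% of 13738 genes higher and 10% lower. At 24 h in WT, 3 were higher (Hmox1, Txnrd1, Srxn1) and 2 lower (Nqo1, Nox4), beside 18.1% and 16.9% of all genes. From 2 to 24 h, 4 fell (Gclc, Nqo1, Nfe2l2, Nox4) beside 36.2% of all genes called in either direction. At 2 h the 9 genes had a median log2 fold change of 0.58 (Cn-Ctl) and 0.66 (WT), where all genes had 0.01 and 0.02. The 9 genes were chosen with earlier results of these data known, so these shares and medians describe the choice and carry no test. All comparisons of 1 arm share their untreated libraries.

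**Figure D1:**
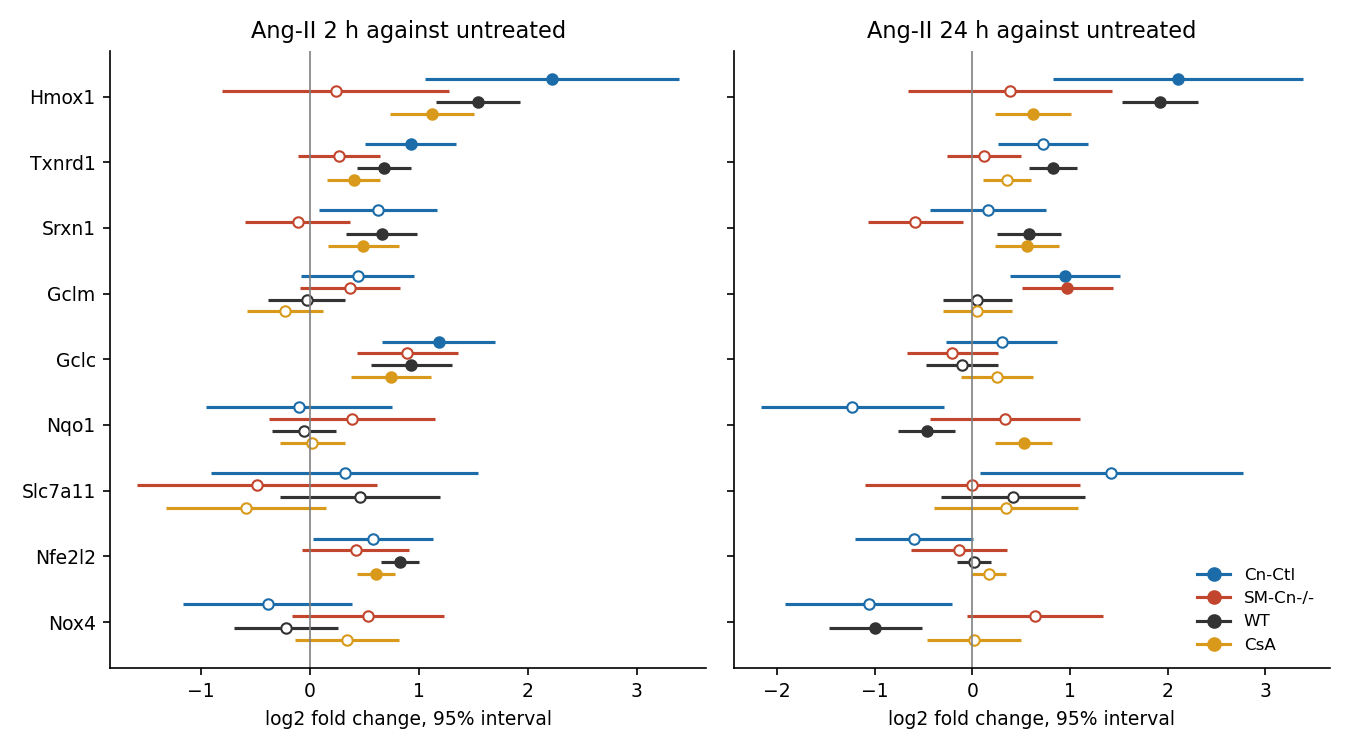
Log2 fold change of each gene after 2 h (left) and 24 h (right) of Ang-II against untreated mice of the same arm, with bars for the 95% interval of the fit and filled points for an adjusted p under 0.05. At 2 h the Hmox1 point is 2.22 in Cn-Ctl, 1.54 in WT and 1.12 in CsA, and 0.24 with an open point in SM-Cn-/-.

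With calcineurin deleted, Gclm rose at 24 h, and under CsA Hmox1, Txnrd1, Srxn1, Gclc and Nfe2l2 rose at 2 h. In SM-Cn-/- mice 0 of the 9 were called at 2 h (limma, 1 at an unadjusted p under 0.05, edgeR 0, DESeq2 1), beside 0.984% of all genes higher and 0.146% lower. At 6 h 0 were called (4 at an unadjusted p under 0.05, edgeR 0, DESeq2 1), beside 1.5% and 0.846%. At 24 h Gclm rose, beside 0.638% higher and 0.153% lower. Gclc fell from 2 to 24 h, beside 3.65% of genes called. Under CsA at 2 h the genes that rose were Hmox1, Txnrd1, Srxn1, Gclc and Nfe2l2, 5 of the 9 beside 12.3% of all genes higher and 7.84% lower. At 24 h 3 rose (Hmox1, Srxn1, Nqo1; 5.2% of all genes higher, 3.77% lower), and from 2 to 24 h Nqo1 rose and Nfe2l2 fell (18% of all genes called).

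Hmox1 was the gene of this group with the largest fold change in Cn-Ctl, WT and CsA mice at 2 h. Its signal in untreated Cn-Ctl libraries was 5.17 and 6.48, and after 2 h of Ang-II it was 34.2, 27.5 and 25.6. All 3 treated libraries lay above both untreated ones, and the log2 fold change was 2.22 ± 0.56, a 4.67-fold rise (adjusted p = 0.0174). At 6 h the libraries held 19.6, 14.3 and 56.0, again all above the untreated range but widely spread, with a log2 fold change of 2.03 ± 0.56 (adjusted p = 0.0427). At 24 h the levels 19.2 and 36.6 gave 2.10 ± 0.62 (adjusted p = 0.0467). The highest Cn-Ctl values, 56.0 at 6 h and 36.6 at 24 h, were both of a replicate 3. These were the Cn-Ctl libraries with the fewest reads (3401706 and 3968895). They also held the lowest Nox4 (191 and 175) and Nqo1 (8.31 and 5.31) of that arm. The 2 h call was lost without untreated replicate 2 or 3 or 2 h replicate 1 (log2 fold change 2.07 to 2.37, adjusted p 0.0656 to 0.162). The 6 h call was lost without either untreated replicate or 6 h replicate 3 (1.46 to 2.18, adjusted p 0.192 to 0.274), and the 24 h call without either untreated replicate or 24 h replicate 3 (1.65 to 2.25, adjusted p 0.158 to 0.359). A fit on only the groups compared also ended the 6 h and 24 h calls (adjusted p = 0.17 and 0.0747), as did quantile normalization (0.0506 and 0.0578), and a fit on all gene classes ended the 24 h call (0.0508).

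**Figure D2:**
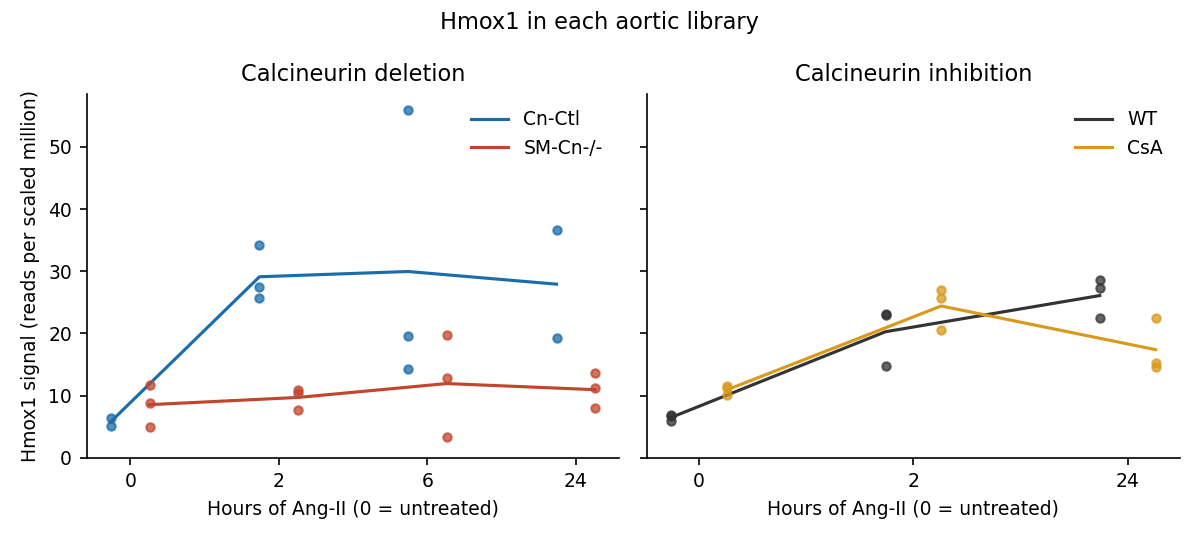
Hmox1 signal in each library (points, 1 pool of 3 aortas each) and the group mean (lines) by hours of Ang-II, with hours spaced evenly, for the genotype table (left) and the CsA table (right). Cn-Ctl and WT libraries under Ang-II lie above their untreated libraries at every hour, whereas treated SM-Cn-/- libraries overlap the untreated ones.

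In the more deeply sequenced WT libraries Hmox1 was 6.68, 5.98 and 6.83 untreated, 22.9, 14.7 and 23.2 at 2 h, and 22.5, 27.3 and 28.5 at 24 h. Neither treated group overlapped the untreated one. The log2 fold change was 1.54 ± 0.18 at 2 h (2.92-fold, adjusted p = 2.02e-05) and 1.92 ± 0.18 at 24 h (3.79-fold, adjusted p = 2.17e-06). From 2 to 24 h it changed by 0.38 (95% interval -0.01 to 0.76, adjusted p = 0.117). Both rises held when any 1 library was left out.

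In SM-Cn-/- aortas Hmox1 was 8.88, 4.98 and 11.8 untreated, 10.9, 7.77 and 10.4 at 2 h, 19.7, 12.8 and 3.30 at 6 h, and 11.2, 13.7 and 8.05 at 24 h. The groups overlapped at every hour. The log2 fold change was 0.24 (95% interval -0.81 to 1.28) at 2 h, 0.23 (-0.81 to 1.27) at 6 h and 0.39 (-0.66 to 1.43) at 24 h, with adjusted p of 0.878, 0.874 and 0.836. These intervals still allow more than a doubling, and the 6 h library at 3.30 held 9 Hmox1 reads. Without untreated replicate 2 the estimates at 2 and 6 h turned to -0.087 and -0.092, and without 6 h replicate 1 that at 6 h turned to -0.27.

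The libraries of both genotypes were then compared directly. Where leaving out a library leaves a group with 1, that library is assumed to vary like the other groups. Untreated Hmox1 overlapped between them. At 2 h the 3 SM-Cn-/- libraries lay below the 3 Cn-Ctl ones, with a log2 difference of -1.54 ± 0.50 (95% interval -2.58 to -0.50) that did not pass over all genes (adjusted p = 0.104). It passed in 2 of 11 alternatives, a fit on only these 2 groups (adjusted p = 0.00694) and DESeq2 (0.0233). Without 1 library it never passed (-1.63 to -1.39, adjusted p 0.137 to 0.35). At 6 h the difference was -1.35 (-2.39 to -0.30, adjusted p = 0.196). The 6 fits without 1 library ran from -1.85 to -0.64 (adjusted p 0.049 to 0.717), and only that without SM-Cn-/- 6 h replicate 1 passed (-1.85). At 24 h it was -1.27 (-2.44 to -0.10, adjusted p = 0.232). The difference of the responses themselves, SM-Cn-/- minus Cn-Ctl, was -1.99 at 2 h (-3.55 to -0.42), -1.79 at 6 h (-3.36 to -0.23) and -1.72 at 24 h (-3.37 to -0.07), with adjusted p of 0.431, 0.726 and 0.43. No difference of the responses passed the test over all genes.

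CsA without Ang-II was itself accompanied by more Hmox1. The untreated CsA libraries held 11.5, 10.045 and 11.3, all above the untreated WT range, a log2 difference of 0.71 ± 0.18 (1.63-fold, adjusted p = 0.0108). Quantile normalization moved the median of all genes in this comparison to -0.11, from -0.02, and Hmox1 stood above either. After 2 h of Ang-II the CsA libraries held 20.6, 27.1 and 25.6, overlapping WT, and the rise over untreated CsA mice was 1.12 ± 0.18 (2.17-fold, adjusted p = 0.000698). At 24 h they held 14.6, 15.2 and 22.4. All 3 lay above the untreated CsA libraries, and the highest lay just under the lowest WT library (22.5). The rise at 24 h was 0.62 ± 0.18 (1.54-fold, adjusted p = 0.0437), and this call was lost without any 1 of its 6 libraries (0.43 to 0.73, adjusted p 0.0571 to 0.12) and in a fit on only its 2 groups (adjusted p = 0.097). CsA and WT at 24 h differed by -0.59 (95% interval -0.98 to -0.21, adjusted p = 0.0667), and passed with DESeq2 (0.0329) and without CsA 24 h replicate 3 (-0.78, adjusted p = 0.0255). The 6 fits without 1 library ran from -0.78 to -0.48 (adjusted p 0.0255 to 0.23), and only that 1 passed.

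The 24 h response of Hmox1 was smaller under CsA than in WT, by -1.30 ± 0.26 on the log2 scale (95% interval -1.84 to -0.75, adjusted p = 0.00878), and this held without any 1 library. At 2 h the difference of the responses was -0.43 (-0.97 to 0.12, adjusted p = 0.467). In the CsA table the group means rose from 6.50 in untreated WT, through 10.9 in untreated CsA, 17.4 in CsA at 24 h, 20.3 in WT at 2 h and 24.4 in CsA at 2 h, to 26.1 in WT at 24 h. The first pair of neighbours in this order, and the second, did not overlap in any library, and from CsA at 24 h upward each group overlapped the next.

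Macrophages are rich in heme oxygenase, so the summed signal of 10 macrophage markers, among them Cd68, Adgre1 and Csf1r, is given beside Hmox1. In WT it was 122 to 175 untreated, 106 to 380 at 2 h and 325 to 473 at 24 h. In CsA mice it was 327 to 389 untreated, 184 to 210 at 2 h and 279 to 445 at 24 h. The sums were higher in WT at 24 h and in untreated CsA, where Hmox1 was higher too. At 2 h WT replicates 1 and 3 had sums of 106 and 120, under the lowest untreated sum, with Hmox1 at 22.9 and 23.2, and the CsA sums were below those of untreated CsA while Hmox1 was above. In the genotype table the sums were 98.2 to 135 in untreated Cn-Ctl, 154 to 406 at 2 h, 193 to 421 at 6 h and 267 to 373 at 24 h, against 180 to 321, 231 to 264, 286 to 364 and 198 to 346 in SM-Cn-/-. Cn-Ctl 6 h replicate 3, with the highest Hmox1 of all, had a sum of 193. Every treated Cn-Ctl library thus had a larger sum than both untreated ones, and of the 10 markers 1, 2 and 2 were called higher at 2, 6 and 24 h. All 10 were called higher in WT at 24 h and in untreated CsA, and 6 were called lower in CsA at 2 h. Summed red blood cell markers at 24 h were 387 to 2484 in CsA against 132 to 138 untreated, and 503 to 2255 in SM-Cn-/- against 77.2 to 455, while the WT and Cn-Ctl ranges at 24 h overlapped the untreated ones. The part of macrophage and blood RNA in the Hmox1 levels was not tested.

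**Figure D3:**
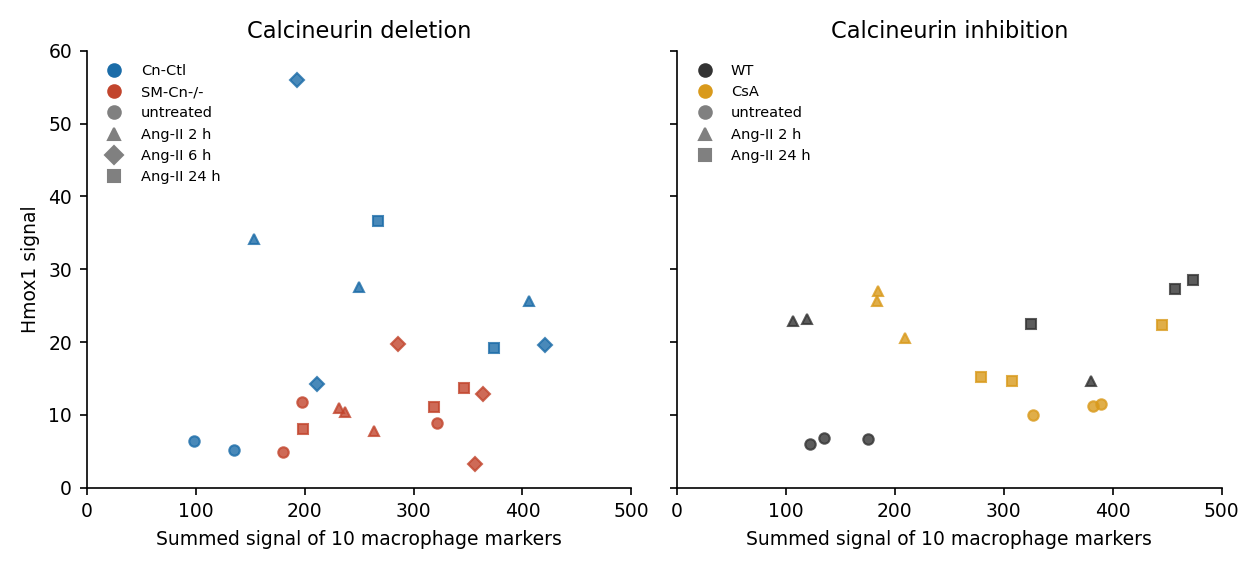
Hmox1 signal of each library against the summed signal of 10 macrophage markers, for the genotype table (left) and the CsA table (right), with colour for the arm and shape for the hours of Ang-II. Untreated CsA libraries combine sums of 327 to 389 with Hmox1 of 10.045 to 11.5, and WT replicates 1 and 3 at 2 h combine sums of 106 and 120 with Hmox1 of 22.9 and 23.2.

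Txnrd1 and Srxn1, which regenerate reduced thioredoxin and peroxiredoxin, rose in WT at both hours. Txnrd1 was 56.3, 57.0 and 59.5 in untreated WT, 98.5, 82.9 and 96.6 at 2 h and 98.1, 119 and 91.4 at 24 h. No treated library overlapped an untreated one, and the log2 fold change was 0.68 ± 0.12 at 2 h (adjusted p = 0.000624) and 0.82 ± 0.12 at 24 h (adjusted p = 6.32e-05). In Cn-Ctl it went from 41.0 and 43.3 to 78.3, 94.2 and 70.5 at 2 h, a change of 0.92 ± 0.20 (adjusted p = 0.00581) that was lost without either untreated replicate (0.88 and 0.96, adjusted p 0.0565 to 0.0813). At 24 h its change in Cn-Ctl was 0.72 ± 0.22 (adjusted p = 0.0592), which passed with DESeq2 (0.0279). SM-Cn-/- libraries held 49.8, 42.0 and 37.4 untreated and 53.4, 60.7 and 42.4 at 2 h, which overlap, with a change of 0.27 (95% interval -0.11 to 0.65, adjusted p = 0.535).

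At 2 h every SM-Cn-/- library had less Txnrd1 than every Cn-Ctl library. The difference, -0.63 ± 0.18, had an adjusted p of 0.0545, on the edge of the threshold. It passed in 3 of 11 alternatives: DESeq2 (0.0177), a minimum signal of 5 (0.0474) and a replicate block (0.0371). The 6 fits without 1 library ran from -0.75 to -0.49 (adjusted p 0.0442 to 0.27). Of these only that without Cn-Ctl 2 h replicate 3 passed (-0.73, adjusted p = 0.0442). The responses differed by -0.65 (95% interval -1.22 to -0.09, adjusted p = 0.517). Under CsA, Txnrd1 rose at 2 h from 65.3, 56.0 and 65.6 to 75.9, 86.7 and 84.4, by 0.40 ± 0.12 (adjusted p = 0.0237). That call was lost without CsA untreated replicate 2 or 2 h replicate 2 or 3 (0.33 to 0.38, adjusted p 0.0593 to 0.0936), and with quantile normalization (0.28, adjusted p = 0.0814). At 24 h the CsA response was smaller than that of WT by -0.47 (-0.82 to -0.12, adjusted p = 0.0799), and without CsA 24 h replicate 3 by -0.59 (adjusted p = 0.0179). The 12 fits without 1 library ran from -0.59 to -0.36 (adjusted p 0.0179 to 0.204), and only that 1 passed.

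Srxn1 gave the one call between the genotypes. After 6 h of Ang-II it was 51.5, 61.0 and 86.0 in Cn-Ctl and 31.6, 29.0 and 21.3 in SM-Cn-/-, without overlap. The log2 difference was -1.25 ± 0.23 (adjusted p = 0.00449) and held without any 1 library, but not in a fit on only these 2 groups (adjusted p = 0.111). In untreated mice it was 39.4 and 46.8 in Cn-Ctl and 44.3, 42.5 and 41.2 in SM-Cn-/-. At 2 h the values were 73.3, 66.1 and 60.4 against 33.8, 40.9 and 44.4, again without overlap, a difference of -0.74 ± 0.23 (adjusted p = 0.0852) that passed with DESeq2 (0.0337) and in a fit on only these groups (0.0442). The difference of the responses at 6 h was -1.24 (95% interval -1.96 to -0.51, adjusted p = 0.369). Against untreated mice, Cn-Ctl at 2 h changed by 0.62 ± 0.26 (adjusted p = 0.187). The SM-Cn-/- libraries at 6 h all lay below the untreated SM-Cn-/- ones, and so did those at 24 h (37.3, 32.7 and 18.6). Neither change was called in the main fit. Cn-Ctl held 52.0 and 44.7 at 24 h. The difference at 6 h thus spans higher values in Cn-Ctl and lower ones in SM-Cn-/- than in untreated mice.

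In WT mice Srxn1 rose from 30.8, 31.1 and 34.1 to 54.1, 47.2 and 51.3 at 2 h (0.66 ± 0.15, adjusted p = 0.00574) and 43.4, 55.8 and 46.1 at 24 h (0.58 ± 0.15, adjusted p = 0.00793). No treated library overlapped an untreated one. CsA mice went from 29.9, 30.9 and 33.7 to 32.2, 48.0 and 56.1 at 2 h, with 1 treated library inside the untreated range, and to 49.5, 41.2 and 49.4 at 24 h. The changes were 0.49 ± 0.15 (adjusted p = 0.0355) and 0.56 ± 0.15 (adjusted p = 0.0343). The 2 h call was lost without any CsA library but 2 h replicate 1 (0.32 to 0.54, adjusted p 0.0577 to 0.145), in a fit on only its 2 groups (0.144) and with quantile normalization (0.0512), and the 24 h call without any CsA library but 24 h replicate 2 (0.52 to 0.61, adjusted p 0.0512 to 0.114).

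The 2 subunits of the glutathione-synthesizing ligase followed different courses. Gclc, the catalytic subunit, was 37.9, 35.9 and 36.6 in untreated WT, 63.7, 87.0 and 63.6 at 2 h and 39.7, 34.5 and 29.5 at 24 h. The 2 h libraries stood clear of both other groups, rising by 0.93 ± 0.17 (adjusted p = 0.00116) and then falling by 1.03 ± 0.17 on the log2 scale (adjusted p = 0.000287). In Cn-Ctl it went from 40.3 and 28.2 to 70.9, 77.8 and 82.9 at 2 h and 40.9 and 42.6 at 24 h. This was a rise of 1.18 ± 0.25 (adjusted p = 0.00411), lost without untreated replicate 3 (0.93, adjusted p = 0.153), and a fall of 0.88 ± 0.25 (adjusted p = 0.0342), lost without any 1 of its 5 libraries (-0.94 to -0.82, adjusted p 0.0564 to 0.19) and with quantile normalization (-0.72, adjusted p = 0.112).

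Gclc was the member whose early rise was nearest to being called in SM-Cn-/- mice. It was 27.4, 37.4 and 49.7 untreated and 63.5, 79.5 and 66.2 at 2 h, without overlap. The change of 0.90 ± 0.22 had an adjusted p of 0.0518, and it passed without untreated replicate 3 (1.10, adjusted p = 0.0427), with a minimum signal of 5 (0.047) and with DESeq2 (0.0211). The 6 fits without 1 library ran from 0.68 to 1.10 (adjusted p 0.0427 to 0.251), and only that 1 passed. At 24 h the libraries were back at 31.9, 43.0 and 24.2, a fall from 2 h of 1.10 ± 0.22 (adjusted p = 0.00861) that was lost without 2 h replicate 2 (adjusted p = 0.0645) or 24 h replicate 3 (-0.90, adjusted p = 0.0691). The 2 h responses of the genotypes differed by -0.29 (95% interval -0.98 to 0.41, adjusted p = 0.879). Under CsA it rose from 41.3, 34.6 and 31.8 to 44.8, 60.6 and 79.7, by 0.74 ± 0.17 (adjusted p = 0.0077), though not in a fit on only these groups (0.0604).

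Gclm, the modifier subunit, rose late in the genotype table. Cn-Ctl libraries held 95.5 and 60.7 untreated, 139, 127 and 119 at 6 h and 176 and 124 at 24 h, and the SM-Cn-/- libraries 57.0, 76.9 and 60.5 untreated, 133, 108 and 66.8 at 6 h and 131, 138 and 113 at 24 h. At 24 h neither arm overlapped its untreated range. The change was 0.95 ± 0.27 in Cn-Ctl (adjusted p = 0.0435) and 0.97 ± 0.22 in SM-Cn-/- (adjusted p = 0.0391). The Cn-Ctl call was lost without untreated replicate 3 or 24 h replicate 2 or 3 (0.62 to 1.20, adjusted p 0.0738 to 0.382), in a fit on only its groups (0.147) and with edgeR (0.0502). The SM-Cn-/- call was lost without any 1 of its 6 libraries (0.89 to 1.10, adjusted p 0.0546 to 0.178). At 6 h Cn-Ctl changed by 0.74 ± 0.25 (adjusted p = 0.103), which passed with DESeq2 (0.0485). In the CsA table Gclm stayed between 56.7 and 77.0 in WT and between 43.2 and 79.4 in CsA, and no comparison was called. The cystine transporter Slc7a11 ranged from 0.867 to 10.2 in the genotype table and from 0.897 to 3.91 in the CsA table, and it passed no comparison in either. Its highest values, 10.2 and 6.20, were single libraries of Cn-Ctl at 24 h and at 2 h.

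Nqo1 fell in WT at 24 h and rose under CsA. In WT it was 15.7, 18.1 and 17.5 untreated, 15.98, 17.5 and 15.8 at 2 h and 12.6, 10.1 and 14.3 at 24 h, the last below every other WT library. The fall was 0.47 ± 0.14 on the log2 scale against untreated mice (adjusted p = 0.0157) and 0.41 ± 0.14 against 2 h (adjusted p = 0.0289). The first was lost without WT untreated replicate 2 or 24 h replicate 2 (-0.43 and -0.34, adjusted p 0.0608 to 0.0938), and the second without any 2 h library or 24 h replicate 2 (-0.44 to -0.28, adjusted p 0.0522 to 0.151) and in a fit on only its 2 groups (0.0593). Untreated CsA libraries, at 11.4, 8.94 and 12.8, lay below untreated WT by 0.62 ± 0.14 (log2 difference -0.62, adjusted p = 0.00518). After 24 h of Ang-II they reached 16.5, 15.5 and 15.96, above every untreated or 2 h CsA library.

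The rise of Nqo1 under CsA was 0.53 ± 0.14 from untreated (adjusted p = 0.0289) and 0.50 ± 0.14 from 2 h (adjusted p = 0.0207). The first call was lost without CsA untreated replicate 1 or 2 or 24 h replicate 1 or 2 (0.39 to 0.56, adjusted p 0.0672 to 0.112), and the second without 2 h replicate 1 or 24 h replicate 1 (0.42 and 0.48, adjusted p 0.0595 to 0.0717). A fit on only the groups compared ended both (adjusted p = 0.0946 and 0.0672). The 24 h responses of CsA and WT mice differed by 0.99 ± 0.20 (95% interval 0.58 to 1.41, adjusted p = 0.00869), without any 1 library as well. In the genotype table Nqo1 was 32.7 and 19.6 in untreated Cn-Ctl and 20.5 and 5.31 at 24 h, a change of -1.23 ± 0.45 (adjusted p = 0.117). At 2 h each arm overlapped its untreated range. At 6 h Cn-Ctl held 20.4, 11.3 and 8.31, which also overlap, a change of -0.996 (adjusted p = 0.209). SM-Cn-/- held 14.95, 12.4 and 9.89 at 6 h, all below its untreated range of 19.5 to 27.5. That change was -0.85 (adjusted p = 0.244), and the genotypes differed by -0.02 at 6 h (95% interval -0.79 to 0.74). From untreated to 24 h SM-Cn-/- changed by 0.33 (adjusted p = 0.804). SM-Cn-/- libraries at 24 h held 28.9, 25.7 and 31.0, above both Cn-Ctl ones, by 1.39 ± 0.41 (adjusted p = 0.0539), which passed with a minimum signal of 5 (0.0459), with quantile normalization (0.0432) and with median-ratio scaling (0.0462). The responses at 24 h differed by 1.56 (95% interval 0.35 to 2.77, adjusted p = 0.282). With 1 library left out at a time, the Cn-Ctl change at 24 h ran from -2.15 to -0.30. The genotype difference at 24 h ran from 0.46 to 2.32, and the difference of the responses from 0.64 to 2.49. The largest size of all 3 came without Cn-Ctl 24 h replicate 2, which leaves a single library of 20 Nqo1 reads.

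Nfe2l2, which encodes NRF2, had a brief rise. WT libraries held 83.5, 84.4 and 81.2 untreated, 143, 151 and 149 at 2 h and 77.9, 88.1 and 86.7 at 24 h, so that only the 2 h group stood apart. It rose by 0.82 ± 0.08 (1.77-fold, adjusted p = 4.39e-06) and fell by 0.80 ± 0.08 (adjusted p = 4.64e-06). In CsA mice it went from 80.7, 70.6 and 69.3 to 106, 121 and 110 (0.61 ± 0.08, adjusted p = 0.000175) and back to 75.1, 85.1 and 89.2 (a fall of 0.43 ± 0.08, adjusted p = 0.00248). The 3 CsA libraries at 2 h lay below the 3 WT libraries, by 0.39 ± 0.08 (log2 difference -0.39, adjusted p = 0.038), the only call of the 9 between CsA and WT at that hour. It was lost without WT 2 h replicate 1 or 3 or CsA 2 h replicate 1 or 3 (-0.41 to -0.35, adjusted p 0.0594 to 0.16), in a fit on only these groups (0.156) and with quantile normalization (-0.31, adjusted p = 0.118). The responses at 2 h differed by -0.21 (95% interval -0.46 to 0.03, adjusted p = 0.421). In Cn-Ctl, Nfe2l2 was 123 and 96.1 untreated, 120, 161 and 222 at 2 h and 75.3 and 68.7 at 24 h, a change of 0.58 ± 0.27 at 2 h (adjusted p = 0.24) and a fall of 1.17 ± 0.27 between 2 and 24 h (adjusted p = 0.00949) that was lost without 24 h replicate 3 (-1.11, adjusted p = 0.129). SM-Cn-/- libraries went from 105, 110 and 100 to 175, 147 and 108, with a change of 0.42 (95% interval -0.07 to 0.91, adjusted p = 0.467).

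Nox4, the hydrogen peroxide-producing oxidase, was lower after 24 h of Ang-II in WT. The libraries held 380, 452 and 399 untreated, 430, 271 and 374 at 2 h and 234, 150 and 247 at 24 h, the last below all others. The fall was 0.99 ± 0.23 (adjusted p = 0.00285), and held without any 1 library. From 2 to 24 h it was 0.78 ± 0.23 (adjusted p = 0.0132), and was lost without 2 h replicate 1 or 24 h replicate 2 (-0.63 and -0.55, adjusted p 0.0688 to 0.0836) and with quantile normalization (-0.48, adjusted p = 0.0892). Untreated CsA mice, at 261, 281 and 238, lay below untreated WT (log2 difference -0.66 ± 0.23, adjusted p = 0.0433), a call lost without any 1 of its 6 libraries (-0.71 to -0.59, adjusted p 0.0619 to 0.134) and with quantile normalization (-0.51, adjusted p = 0.0774). The 7 smooth muscle markers summed to 16292 to 18338 in these CsA libraries and 25639 to 35127 in untreated WT, and to 23799 to 33153 in WT at 24 h. Endothelial and adipose markers were higher in sum in WT at 24 h (687 to 826 and 1220 to 1516) than untreated (386 to 662 and 497 to 961), and their part in the fall was not tested. CsA mice at 24 h held 278, 352 and 185, overlapping untreated CsA. The 24 h responses differed by 1.01 ± 0.32 (95% interval 0.34 to 1.69, adjusted p = 0.0565), and passed without WT 24 h replicate 3 (1.14, adjusted p = 0.046), without CsA 24 h replicate 3 (1.26, adjusted p = 0.00845) and with DESeq2 (0.0133). The 12 fits without 1 library ran from 0.79 to 1.26 (adjusted p 0.00845 to 0.153), and only those 2 passed.

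In the genotype table Nox4 was 537 and 445 in untreated Cn-Ctl and 315 and 175 at 24 h, a change of -1.06 ± 0.41 (adjusted p = 0.14). SM-Cn-/- libraries were at 244, 378 and 260 untreated and 623, 438 and 335 at 24 h. The responses differed by 1.70 ± 0.53 (95% interval 0.60 to 2.80, adjusted p = 0.165), which passed with DESeq2 (0.0433). Cell-type markers differed between these groups. Untreated smooth muscle markers summed to 28570 to 29158 in Cn-Ctl and 20899 to 24367 in SM-Cn-/-, without overlap, and at 24 h to 27325 to 49393 and 24591 to 27367. Endothelial markers went from 354 to 461 untreated to 512 to 524 at 24 h in Cn-Ctl and from 600 to 804 to 1178 to 1224 in SM-Cn-/-. Their part in the Nox4 values, and in the 24 h values of the other genes in these groups, was not tested.

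**Figure D4:**
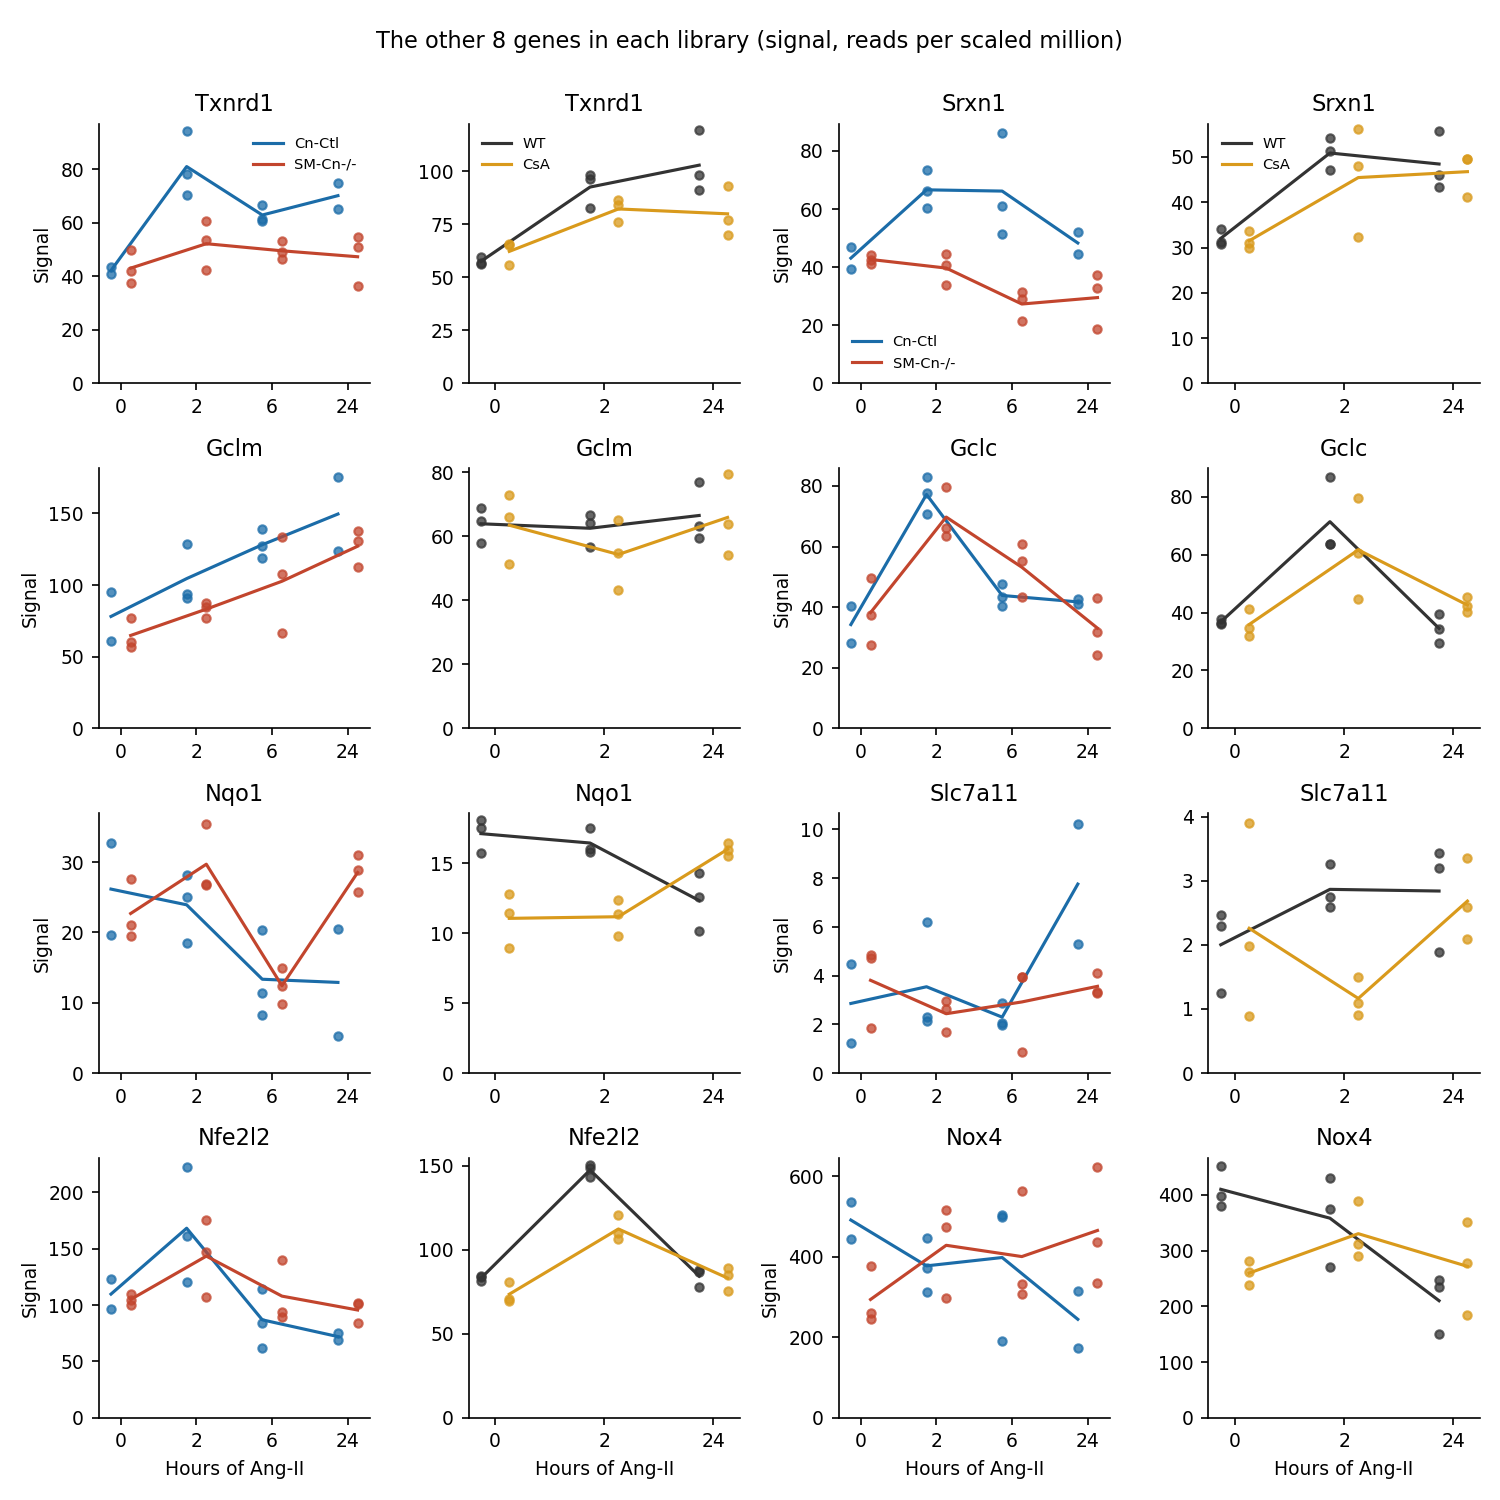
Signal of the other 8 genes in each library (points) with group means (lines) by hours of Ang-II, spaced evenly, each gene in the genotype table (Cn-Ctl blue, SM-Cn-/- red) and the CsA table (WT black, CsA yellow). Gclc and Nfe2l2 peak at 2 h in WT (63.6 to 87.0 and 143 to 151), Gclm reaches 113 to 176 at 24 h in the genotype table, and Nqo1 in CsA mice reaches 15.5 to 16.5 at 24 h.

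Between arms, few of the 9 genes were called. In untreated mice 0 differed between SM-Cn-/- and Cn-Ctl (limma, 0 at an unadjusted p under 0.05, 0 by edgeR and DESeq2), where 0.0139% of all genes were called. At 2 h 0 differed (3 at an unadjusted p under 0.05, edgeR 0, DESeq2 3), beside 3.7% of all genes, at 6 h 1 beside 1.98%, and at 24 h 0 (5 unadjusted, 0 by edgeR and DESeq2) beside 4.94%. The difference of responses was called for 0 of the 9 at each hour (limma, 3, 2 and 4 unadjusted at 2, 6 and 24 h, edgeR 0 at each, DESeq2 0, 0 and 1), where 0.513%, 0.0624% and 0.513% of all genes were called. CsA and WT differed untreated in 3 of the 9 (Hmox1 higher, Nqo1 and Nox4 lower) beside 25.2% of all genes, at 2 h in 1 beside 1.33%, and at 24 h in 0 (3 unadjusted, edgeR 0, DESeq2 2) beside 5.58%. Untreated CsA and WT also differed in their cell-type markers. Summed macrophage markers were 327 to 389 against 122 to 175, endothelial markers 1019 to 1194 against 386 to 662, and adipose markers 2448 to 3831 against 497 to 961. Their part in the 3 calls was not tested. The responses of CsA and WT differed in 0 of the 9 at 2 h (1 unadjusted, 0 by edgeR and DESeq2) beside 0.146% of all genes, and in 2 at 24 h (Hmox1 smaller, Nqo1 larger under CsA) beside 9.42%.

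**Figure D5:**
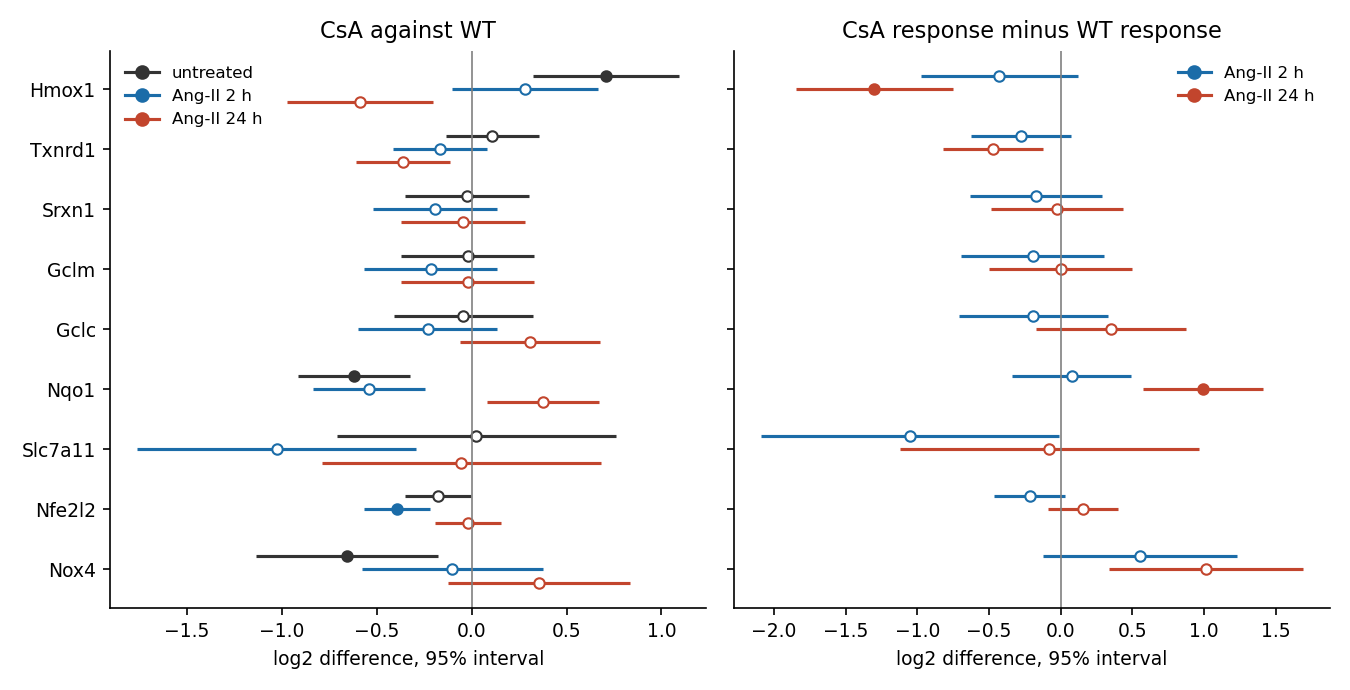
Left, log2 difference of CsA against WT mice untreated and after 2 and 24 h of Ang-II. Right, the Ang-II response under CsA minus that in WT. Bars are 95% intervals and filled points have an adjusted p under 0.05. Hmox1 runs from 0.71 untreated to -0.59 at 24 h and Nqo1 from -0.62 to 0.37.

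Of the genes that set NRF2 activity, the small MAF partners Maff and Mafk and the repressor Bach1 rose at 2 h in Cn-Ctl and WT. Of 13 regulators and partners tested in WT at 2 h, 7 were higher (53.8%) and 2 lower (15.4%), beside 11.4% and 10% of all genes, with a median of 0.31 (all genes 0.02). Of 14 in Cn-Ctl 4 were higher (28.6%) and 1 lower (7.14%), beside 4.72% and 1.51% of all genes (median 0.15). In SM-Cn-/- 1 of 14 was higher (7.14%, all genes 0.984%, median 0.24). In CsA 5 of 13 were higher (38.5%) and 1 lower (7.69%), beside 12.3% and 7.84% (median 0.26). This list and those below were chosen with earlier results of these data known, so their shares and medians carry no test. Maff, a small MAF protein, rose by 3.02 ± 0.32 in Cn-Ctl (adjusted p = 1.91e-06), 2.58 ± 0.14 in WT (4.06e-08), 1.65 ± 0.14 in CsA (6.49e-06) and 1.39 ± 0.29 in SM-Cn-/- (0.016). Mafk rose by 1.44 ± 0.28 in Cn-Ctl (adjusted p = 0.00207) and 1.11 ± 0.16 in WT (0.000157). Bach1, which competes with NRF2 for the response element, rose by 1.36 ± 0.28 in Cn-Ctl (adjusted p = 0.00291), 0.67 ± 0.12 in WT (0.00121) and 0.45 ± 0.12 in CsA (0.0197), and had a change of 0.05 ± 0.25 in SM-Cn-/- (0.952). Differences between arms are not given for these regulators, and a call in 1 arm but not in another does not show one. Bach2 rose in WT by 0.99 ± 0.28 (adjusted p = 0.0167).

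Among other known NRF2 targets, Ftl1 was higher and Gstm1 and Ephx1 lower at 24 h in WT and Cn-Ctl. At 2 h 1 of 34 was higher and 1 lower in Cn-Ctl (2.94% each, all genes 4.72% and 1.51%; median -0.14), 5 of 33 were higher (15.2%) and 1 lower (3.03%) in WT (all genes 11.4% and 10%; median 0.24), and 5 were higher in CsA (15.2%, all genes 12.3%). At 24 h in WT 8 of 33 tested were higher (24.2%) and 9 lower (27.3%), beside 18.1% and 16.9% of all genes (median -0.09). In Cn-Ctl 2 of 34 were higher (5.88%) and 5 lower (14.7%), beside 3.22% and 2.39% (median -0.10). At that hour 1 was higher in SM-Cn-/- (2.94%, all genes 0.638%), and 1 was higher and 1 lower in CsA (3.03% each, all genes 5.2% and 3.77%). Most of these counts are 5 or fewer, and nothing is read from them about the list. Ftl1, the ferritin light chain, rose by 1.40 ± 0.26 in Cn-Ctl (adjusted p = 0.00253), 1.06 ± 0.21 in SM-Cn-/- (0.0207) and 0.88 ± 0.15 in WT (0.000354). Gstm1, a glutathione transferase, fell by 1.32 ± 0.14 in WT (adjusted p = 4.98e-06) and 1.30 ± 0.26 in Cn-Ctl (0.00511). Ephx1, the microsomal epoxide hydrolase, fell by 1.15 ± 0.13 in WT (adjusted p = 6.95e-06), and it also fell in Cn-Ctl (adjusted p = 0.00511). The glycine transporter Slc6a9 fell at 2 h in Cn-Ctl by 1.10 ± 0.30 (adjusted p = 0.0308).

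Among 22 genes of heme and iron handling, 5 were higher (22.7%) and 4 lower (18.2%) in WT at 24 h, shares near the 18.1% and 16.9% of all genes (median 0.14). Of these, Hp, haptoglobin, rose by 3.81 ± 0.46 (adjusted p = 1.75e-05) and its receptor Cd163, which is also one of the macrophage markers, by 1.36 ± 0.17 (adjusted p = 2.86e-05). Tfrc, the transferrin receptor, rose by 1.12 ± 0.22 (adjusted p = 0.000905). Untreated CsA mice had 9 of these 22 higher than WT and 1 lower (45.5% called, all genes 25.2%; median 0.41), Hp by 3.35 ± 0.46 (adjusted p = 0.000538) and Cd163 by 1.07 ± 0.17 (adjusted p = 0.00106). Cell-type markers differed there too. Adipose markers summed to 2448 to 3831 in untreated CsA against 497 to 961 in untreated WT, and macrophage markers to 327 to 389 against 122 to 175. Their part in these heme and iron calls was not tested. Of 10 other NADPH oxidase genes 5 were higher (50%) and 1 lower (10%) in WT at 24 h, beside the same 18.1% and 16.9% (median 0.53). Ncf1 and Rac2, subunits of the phagocyte oxidase, rose by 1.98 ± 0.22 (adjusted p = 9.14e-06) and 1.25 ± 0.33 (adjusted p = 0.00728), while Noxo1, the organizer of Nox1, fell by 1.29 ± 0.19 (adjusted p = 8.23e-05). Cybb, the phagocyte oxidase core, fell at 2 h in CsA by 1.31 ± 0.37 (adjusted p = 0.0198). Of the 10 macrophage markers all were higher in WT at 24 h and 6 lower in CsA at 2 h, and their part was not tested. Of 25 other antioxidant enzymes 2 were higher (8%) and 6 lower (24%) in WT at 24 h, again beside 18.1% and 16.9% (median 0.05). Glrx, glutaredoxin, rose there by 1.04 ± 0.17 (adjusted p = 0.000233), Txnip, the thioredoxin inhibitor, fell in Cn-Ctl at 24 h by 1.05 ± 0.27 (adjusted p = 0.0246), and the stress-induced sestrins Sesn1 and Sesn3 rose in SM-Cn-/- at 2 h by 1.10 ± 0.22 (adjusted p = 0.0128) and 1.00 ± 0.25 (adjusted p = 0.0499).

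The genes whose levels most resembled Hmox1 over libraries were found by Pearson correlation of log2(signal + 0.5), taking for each of 10340 genes the lower of its correlation over 22 genotype and over 18 CsA libraries. The libraries of a table fall into the same groups of arm and Ang-II hours for every gene, so the values describe a pattern and carry no test. The highest were Syt12 (0.87 and 0.95), Aars (0.85 and 0.86), Stat3 (0.85 and 0.91), Emp1 (0.84 and 0.88) and Plau (0.84 and 0.86). Syt12 encodes a synaptotagmin, Aars the alanyl-tRNA synthetase, Stat3 a cytokine-activated transcription factor and Plau urokinase. Of the other redox genes Txnrd1 was the nearest (0.72 and 0.90, rank 78), then Srxn1 (0.66 and 0.79, rank 166). Nqo1 (-0.37 and -0.31) and Nox4 (-0.34 and -0.41) had negative values in both tables. After each group mean was subtracted, the correlation of Hmox1 with Txnrd1 was 0.11 in the genotype table and 0.72 in the CsA table, and that with Srxn1 was 0.58 and 0.53.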

How the data were processed

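RNA-seq was run on 40 libraries, each of 3 pooled aortas, in a genotype experiment (22 libraries) and a CsA experiment (18). The submitters' processing notes name Bowtie 0.12.7, RSEM 1.16 and GRCm38. The authors deposited, per experiment, a table of signal, a gene's reads plus 0.5 divided by the scaled library size; how the scale was set is not given in the sources used here. The deposited signal gave whole reads within 0.05 for 100% of values. The authors dropped 1 untreated Cn-Ctl library before deposit. Libraries held 2728007 to 10250178 reads (genotype) and 18976266 to 38900009 reads (CsA). No replicate pair differed by as little as sampling noise.

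Protein-coding genes with a signal of at least 1 in 2 libraries (14424 and 13738) were fitted as log2(signal + 0.5) with limma 3.58.1 (trend, R 4.3.3), 1 model per table with 1 mean per group. P-values are two-sided, Benjamini-Hochberg adjusted over all genes tested, in 26 comparisons; they measure the spread between pooled libraries. The fit was tested on simulated data. Python 3.11.15, pandas 2.3.3 and matplotlib 3.10.9 made summaries and figures. Alternatives were pseudocounts of 0.1 and 1, no filter and a minimum of 5, quantile and median-ratio scaling, all gene classes, a replicate block, a fit on only the groups compared, leaving out each library, and edgeR 4.0.16 and DESeq2 1.42.0 on the recovered reads. The named genes are the 9 genes, Ppp3r1, up to 4 called genes with the largest change at 2 or 24 h in each of 5 lists, and the 5 genes most like Hmox1. The genes and lists were chosen with earlier results of these data known.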

Additional observations from a re-analysis of the deposited data

Results flagged for a closer look

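Hmox1 and Nqo1 were picked out because their 24 h response to Ang-II differed between CsA and WT mice in the test of the difference itself. The Hmox1 response under CsA minus that in WT was -1.30 on the log2 scale (adjusted p = 0.00878), with a change of 0.62 in CsA and 1.92 in WT. The Nqo1 difference was 0.99 (adjusted p = 0.00869), with a change of 0.53 in CsA and -0.47 in WT. Untreated CsA mice already differed from untreated WT mice in both genes, by 0.71 for Hmox1 and -0.62 for Nqo1, and these untreated libraries enter the differences.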

How the results depend on the processing

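The 5 calls in WT at 2 h, those of Hmox1, Txnrd1, Srxn1 and Nox4 in WT at 24 h, and the differences of the 24 h responses of Hmox1 and Nqo1 between CsA and WT kept their direction and side of the threshold under every alternative. Where a count of the 9 genes called moved, the cause was not tested. For Cn-Ctl at 6 h (1 called) it was 0 with quantile normalization, 0 with the replicate block, 0 with only the groups compared and 2 with DESeq2. For Cn-Ctl at 24 h (2) it was 1 with quantile normalization, 1 with all gene classes, 1 with edgeR, 0 with only the groups compared, 3 with the replicate block and 3 with DESeq2, and for Cn-Ctl from 2 to 24 h (2) it was 1 with quantile normalization. For SM-Cn-/- at 2 h (0) it was 1 with a minimum signal of 5, 1 with the replicate block and 1 with DESeq2, at 6 h (0) 1 with DESeq2, and from 2 to 24 h (1) 2 with only the groups compared. Between genotypes it was, at 2 h (0), 1 with a minimum of 5, 1 with the replicate block, 2 with only the groups compared and 3 with DESeq2, at 6 h (1) 0 with only the groups compared, and at 24 h (0) 1 with a minimum of 5, 1 with quantile and 1 with median-ratio scaling. The difference of the 24 h responses of the genotypes (0) gave 1 with DESeq2. For CsA at 2 h (5) it was 3 with quantile normalization and 3 with only the groups compared, at 24 h (3) 1 with only the groups compared, 4 with quantile normalization and 4 with DESeq2, and from 2 to 24 h (2) 1 with only the groups compared, 3 with edgeR and 4 with DESeq2. For WT from 2 to 24 h (4) it was 3 with only the groups compared. CsA against WT gave, untreated (3), 2 with quantile normalization and 2 with the replicate block, at 2 h (1), 0 with quantile normalization, 0 with the replicate block, 0 with only the groups compared and 2 with DESeq2, and at 24 h (0) 2 with DESeq2, and the difference of their 24 h responses (2) gave 3 with DESeq2.

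Leaving out each library in turn gave 0 to 3 called in Cn-Ctl at 2 h, 0 to 1 at 6 h, 0 to 2 at 24 h and 0 to 2 from 2 to 24 h. In SM-Cn-/- it gave 0 to 1 at 2 h, 0 to 1 at 6 h, 0 at 24 h and 0 to 1 from 2 to 24 h, and between genotypes 0 to 1 at 2 h, 1 to 2 at 6 h, 0 to 1 at 24 h and 0 to 1 for the difference of the 24 h responses. It gave 2 to 4 in WT from 2 to 24 h, 3 to 5 in CsA at 2 h, 0 to 1 at 24 h and 1 to 3 from 2 to 24 h, 0 to 1 between CsA and WT at 2 h, 0 to 2 at 24 h, and 2 to 4 for the difference of the 24 h responses. The Hmox1 change in SM-Cn-/- ran from -0.087 (without untreated replicate 2) to 0.50 (without untreated replicate 3) at 2 h, and from -0.27 (without 6 h replicate 1) to 0.94 (without 6 h replicate 3) at 6 h, where it was -0.092 without untreated replicate 2.

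The main fit did not pair libraries by replicate number. Same-numbered libraries had a median correlation of deviations of 0.06 in the genotype table and -0.03 in the CsA table. For libraries of different number the medians were -0.04 and -0.01. Whether some same-numbered libraries shared a batch was not tested. Under the replicate block the Hmox1 call in Cn-Ctl at 6 h (adjusted p = 0.0544), the Nox4 call between untreated CsA and WT (0.061) and the Nfe2l2 call between CsA and WT at 2 h (0.0569) were lost, and those of Txnrd1 in Cn-Ctl at 24 h (0.0406), Gclc in SM-Cn-/- at 2 h (0.0306) and Txnrd1 between genotypes at 2 h (0.0371) were gained. Over all genes DESeq2 called 947 against 572 in Cn-Ctl at 6 h, 395 against 163, 644 against 338 and 322 against 114 in SM-Cn-/- at 2, 6 and 24 h, 830 against 534 and 494 against 285 between genotypes at 2 and 6 h, 801 against 183 and 1538 against 766 between CsA and WT at 2 and 24 h, and 2005 against 1294 for the difference of their 24 h responses. Quantile normalization changed the split of calls from 681 higher and 218 lower to 449 and 241 in Cn-Ctl at 2 h, from 392 and 180 to 344 and 266 at 6 h, from 1562 and 1375 to 1078 and 1613 in WT at 2 h, and from 1904 and 1560 to 1547 and 2341 between untreated CsA and WT. Depth limits Hmox1 in the genotype table (9 to 178 reads a library) and Slc7a11 in both.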
